A study of Mus musculus with 12 samples.

Results

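The genes described here are those named Gpr and a number, a symbol that collects orphan and formerly orphan G protein-coupled receptors together with some related membrane proteins of the same 7-helix fold. They were found on the array by translating each probe's RefSeq accession into a gene symbol and keeping every symbol made of Gpr, digits and at most 1 letter. Gpr15 was left out because it was the gene deleted in the knockout mice. The rule gave 73 genes of the 22911 with a symbol on the array, and it used no measured value. Of these, 29 passed the filter on dim probes, which asks for a signal flagged well above background on every array of 1 group or more, and were tested among 13283 genes tested in all. That is 39.7% of the Gpr genes, against 58% of all genes.

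G protein-coupled receptors sit in the plasma membrane, bind a ligand outside the cell and activate heterotrimeric G proteins inside it, until receptor kinases and arrestins switch them off. Macrophages use members of this family to sense acidity, oxysterols, lysophospholipids, medium-chain fatty acids and other metabolites of inflamed tissue. Several Gpr names belong to proteins of the Golgi or the lysosome for which signalling through G proteins is not established.

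The cells were macrophages taken from the abdominal cavity of C57/BL6 mice and cultured in DMEM with serum. GPR15KO (KO) cells given LPS, KO cells given PBS, wild-type (WT) cells given LPS and WT cells given PBS formed the 4 groups, with 3 arrays each and 12 in all. LPS, the bacterial lipopolysaccharide that activates Toll-like receptor 4, was used at 100 ng/ml for 4 h, and PBS was its vehicle. The labels do not say how the macrophages were purified, whether the 3 arrays of a group came from separate mice, or which part of Gpr15 was deleted, so p-values measure the spread between these arrays only. Levels are log2 signals relative to the 75th percentile of each array, each gene was read by its brightest probe, and levels of different probes cannot be set against each other.

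Some facts of the series touch every comparison below. The arrays lay on 2 slides. KO LPS arrays and KO PBS array 3 lay on slide 2, and KO PBS arrays 1 and 2 lay on slide 1 with every WT array. KO LPS and WT LPS therefore never shared a slide. The single Gpr15 probe had signals of 6.02 to 15.2, none of the 12 flagged above background, and could not check the KO label. Xist was above background on 0 of 6 KO arrays and on 6 of 6 WT arrays, and Ddx3y, Kdm5d and Uty of the Y chromosome were above it on 6 of 6 KO arrays and 0 of 6 WT arrays. Genotype and sex therefore cannot be told apart. All 11 macrophage markers were above background in every group. So were all 10 B-cell markers, whose summed signal, in multiples of the 75th percentile, was 59.4 to 60.2 in KO LPS, 128 to 134 in KO PBS, 73.8 to 87.7 in WT LPS and 151 to 191 in WT PBS. Of 10 T-cell markers 7 were above background in every group, with summed signals of 8.41 to 9.19, 9.17 to 9.84, 8.54 to 8.77 and 9.74 to 11.3 in the same order of groups. Mast-cell markers summed to 188 to 205 in KO LPS, 99.1 to 116 in KO PBS, 241 to 263 in WT LPS and 111 to 150 in WT PBS. These 8 markers did not move together, with 3 called higher and 1 lower after LPS in KO cells, and 3 higher and 2 lower in WT cells. Dendritic-cell markers summed to 258 to 268 in KO LPS, 177 to 193 in KO PBS, 257 to 295 in WT LPS and 192 to 210 in WT PBS, and 3 to 5 of 6 mesothelial markers were below background on all arrays of a group. Neutrophil markers summed to 7.94 to 10 in KO LPS, 5.85 to 9.11 in KO PBS, 4.11 to 10.3 in WT LPS and 3.16 to 4.15 in WT PBS, with 3 of 8 below background on all arrays of each group. In such bulk RNA, fewer cells of a type and less RNA per cell cannot be told apart.

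The LPS comparisons asked which receptor genes changed within 4 h of LPS. In KO cells 12 of the 29 tested Gpr genes were higher after LPS and 10 were lower at an adjusted p below 0.05, and in WT cells 10 were higher and 11 were lower. Among all tested genes, 35.1% rose and 32% fell in KO cells, while 33.7% rose and 31% fell in WT cells. In both directions together the share of all genes called was 67% in KO cells and 64.7% in WT cells, so the shares of 75.9% and 72.4% among the Gpr genes stood near that background. With the slide as a term 17 Gpr genes were called in KO cells, against 53% of all genes in that fit, and all WT arrays lay on slide 1. LPS and PBS arrays did not overlap in 22 of the 29 in KO cells, against 72.1% of all genes, and in 22 in WT cells, against 69.4%. The fitted change reached 2-fold for 10 of the 29 in KO cells and for 10 in WT cells, where the shares over all genes were 14.4% and 15.6%. Of these 10, 6 in each genotype were above background on all 12 arrays, and the other 4 (Gpr45, Gpr55, Gpr85 and Gpr174) were fitted near background. These 4 and Gpr75, Gpr149 and Gpr165 passed the filter on dim probes only through some of the groups. Gpr149 passed through KO LPS, at a mean of -3.84 against -3.76 in WT PBS, and the others through groups where they were high. The differences of these genes are therefore partly set by the filter, and their counts and p-values are given as a description. The median change of the 29 was 0.16 in KO cells and -0.14 in WT cells, beside medians of 0.04 and 0.03 over all genes. The median size of change, without sign, was 0.68 in KO cells and 0.59 in WT cells, against 0.39 and 0.37 over all genes. In 19 genes the call had the same direction in both genotypes, 10 higher and 9 lower, and no gene was called in opposite directions. Across the 29 genes the KO and WT changes had a Pearson correlation of 0.94 and shared their sign in 26, and across all 13283 genes these values were 0.88 and 11256. These correlations are across genes, which are not independent replicates, and genes measured on an array share that array's scaling. The medians and the correlation of the 29 include the genes near background named above, so they are a description as well.

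**Figure D1:**
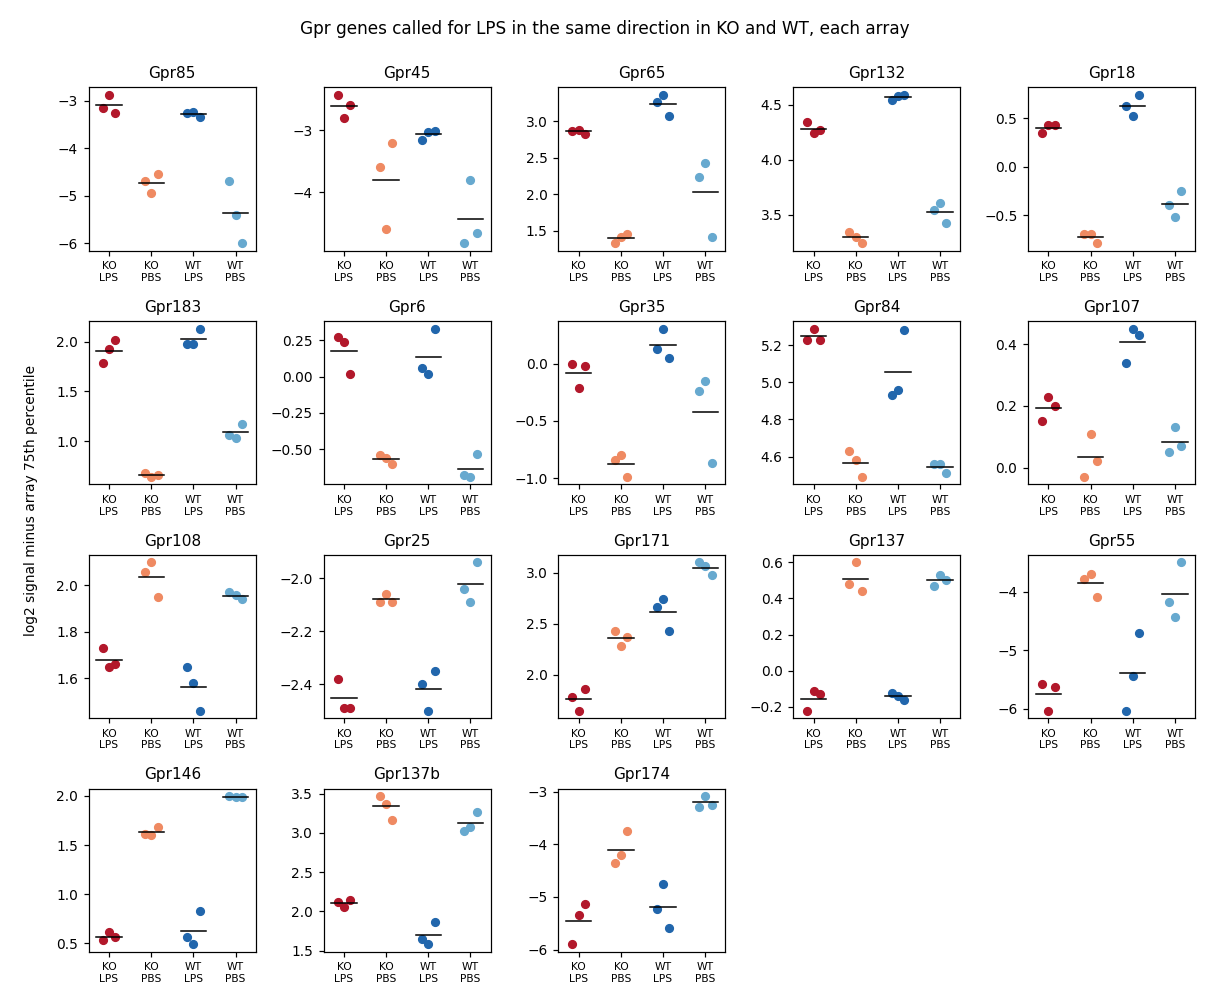
Log2 level of 18 Gpr genes called for LPS in the same direction in KO and WT cells, 1 point for each array and a line at the group mean, with KO LPS, KO PBS, WT LPS and WT PBS from left to right. Each panel has its own axis. In the panel of Gpr132 the 3 KO LPS points lie above the 3 KO PBS points and the 3 WT LPS points above the 3 WT PBS points, and in the panel of Gpr137b they lie below.

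The proton-sensing receptors, which signal when the surroundings turn acidic, include Gpr65 and Gpr132, which rose in both genotypes, and Gpr4, which was above background on 0 arrays. Gpr132, which also responds to oxidised fatty acids, was at 4.34, 4.24 and 4.27 in KO LPS arrays and 3.34, 3.30 and 3.24 in KO PBS arrays. In WT cells it was at 4.54, 4.58 and 4.59 with LPS and 3.54, 3.61 and 3.42 with PBS. The LPS arrays lay above the PBS arrays without overlap in both genotypes, by 0.99 ± 0.05 in KO cells (SE; 1.99-fold, adjusted p = 2.38e-08) and 1.05 ± 0.05 in WT cells (2.07-fold, adjusted p = 1.17e-08).

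Gpr65, or TDAG8, which raises cyclic AMP when protonated, was at 2.87, 2.88 and 2.83 in KO LPS arrays and 1.33, 1.42 and 1.46 in KO PBS arrays. WT LPS arrays gave 3.26, 3.36 and 3.07, and WT PBS arrays gave 2.24, 2.43 and 1.41. WT PBS array 3 stood about as low as the KO PBS arrays, and the other WT PBS arrays stood above them. Gpr65 rose 2.74-fold in KO cells (log2 1.45 ± 0.20, adjusted p = 4.13e-05) and 2.3-fold in WT cells (1.20 ± 0.20, adjusted p = 0.000175).

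Among the 6 tested receptors on the list for lipids, lysophospholipids and oxysterols, 4 rose (Gpr132, Gpr18, Gpr183 and Gpr84) and 2 fell (Gpr55 and Gpr174) in each genotype. Gpr183, or EBI2, guides B cells and dendritic cells along gradients of the oxysterol 7-alpha,25-dihydroxycholesterol. It was at 1.78, 1.92 and 2.02 in KO LPS arrays and 0.68, 0.64 and 0.66 in KO PBS arrays. Its WT LPS levels were 1.98, 1.98 and 2.13 and its WT PBS levels 1.06, 1.03 and 1.17. The rise was 2.38-fold in KO cells (1.25 ± 0.07, adjusted p = 2.27e-08) and 1.92-fold in WT cells (0.94 ± 0.07, adjusted p = 1.77e-07), and no LPS array overlapped a PBS array.

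Gpr18, a lymphocyte receptor with N-arachidonylglycine among its reported ligands, was at 0.35, 0.43 and 0.43 in KO LPS arrays and -0.70, -0.69 and -0.79 in KO PBS arrays. WT cells gave 0.63, 0.52 and 0.74 with LPS and -0.40, -0.52 and -0.25 with PBS. The LPS levels were above 0 and the PBS levels below 0 on all 12 arrays. The fold change was 2.19 in KO cells (1.13 ± 0.08, adjusted p = 1.6e-07) and 2.03 in WT cells (1.02 ± 0.08, adjusted p = 2.94e-07). Gpr18 and Gpr183 lie within the span of Ubac2 on chromosome 14, and the Ubac2 probe went the other way, at -0.30 in KO cells (adjusted p = 0.0037) and -0.35 in WT cells (adjusted p = 0.00107).

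Promoter sequences are shown for 4 receptors, since they let the pair that rose side by side within Ubac2 be set beside another gene that rose and a gene that fell. They are the 250 bases before the start of transcription from RefSeq, build GRCm38.p6, all on the minus strand and written 5′ to 3′. Capitals mark matches to 1 of 6 motifs searched on both strands in windows from 250 bases before to 50 after the start. The regions printed are chr14:121965194-121965443 for Gpr183, chr14:121915889-121916138 for Gpr18, chr10:41072291-41072540 for Gpr6 and chr1:85961056-85961305 for Gpr55.
Gpr183: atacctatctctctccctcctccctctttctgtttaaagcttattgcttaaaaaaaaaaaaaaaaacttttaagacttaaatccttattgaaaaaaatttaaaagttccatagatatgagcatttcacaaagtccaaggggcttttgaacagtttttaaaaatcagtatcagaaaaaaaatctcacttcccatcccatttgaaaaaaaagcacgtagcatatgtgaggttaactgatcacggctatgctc
Gpr18: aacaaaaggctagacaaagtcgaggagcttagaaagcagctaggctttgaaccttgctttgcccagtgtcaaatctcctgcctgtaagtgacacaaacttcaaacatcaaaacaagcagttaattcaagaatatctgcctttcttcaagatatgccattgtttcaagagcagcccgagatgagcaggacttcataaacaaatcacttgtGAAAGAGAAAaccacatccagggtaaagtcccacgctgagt
Gpr6: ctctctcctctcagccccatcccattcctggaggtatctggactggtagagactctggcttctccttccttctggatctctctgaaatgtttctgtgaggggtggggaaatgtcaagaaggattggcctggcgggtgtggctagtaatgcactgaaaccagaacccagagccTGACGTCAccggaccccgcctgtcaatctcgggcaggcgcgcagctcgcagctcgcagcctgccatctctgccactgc
Gpr55: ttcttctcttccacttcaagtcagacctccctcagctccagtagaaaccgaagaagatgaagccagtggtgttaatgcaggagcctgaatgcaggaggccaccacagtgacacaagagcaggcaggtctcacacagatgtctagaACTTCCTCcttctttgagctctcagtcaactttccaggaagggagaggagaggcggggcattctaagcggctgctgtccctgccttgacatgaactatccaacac
The capitals are an interferon-stimulated response element (ISRE) in Gpr18, read on its other strand at bases -41 to -32, a cyclic AMP response element (CRE, TGACGTCA) in Gpr6 at bases -78 to -71, and a PU.1 match (GAGGAAGT), read on its other strand, in Gpr55 at bases -105 to -98. No capitals stand in Gpr183, whose letters hold none of the 6 motifs. Of the 29 tested Gpr genes 22 had a promoter in the table. The NF-kB motif was in 0 of these 22 and in 5.14% of all 27025 genes with a promoter, and the AP-1 motif TGANTCA was in 3 of 22, or 13.6%, against 8.97% of all genes. The ISRE was in 2 of 22 against 3.99% of all genes, the CRE in 1 of 22 against 2.03%, PU.1 in 2 of 22 against 3.69%, and the TATA motif TATAAA in 2 of 22 against 15.7%. The matches are letters in a window, not measured binding.

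Gpr84, a receptor for medium-chain fatty acids in myeloid cells, was at 5.23, 5.29 and 5.23 in KO LPS arrays and 4.63, 4.58 and 4.49 in KO PBS arrays. Its WT levels were 4.93, 4.96 and 5.28 with LPS and 4.56, 4.56 and 4.51 with PBS. WT LPS array 3 reached the KO LPS level and the other WT LPS arrays lay below it. The gene rose 1.61-fold in KO cells (0.68 ± 0.08, adjusted p = 1.1e-05) and 1.43-fold in WT cells (0.51 ± 0.08, adjusted p = 0.00011).

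The receptors for lysophosphatidylinositol (Gpr55) and lysophosphatidylserine (Gpr174) were read near the background. Gpr174 was above background on 0 of 3 KO LPS, 1 of 3 KO PBS, 0 of 3 WT LPS and 3 of 3 WT PBS arrays. It was at -5.90, -5.34 and -5.13 in KO LPS, -4.36, -4.20 and -3.75 in KO PBS, -5.23, -4.75 and -5.59 in WT LPS and -3.28, -3.08 and -3.25 in WT PBS. It passed the filter only through WT PBS, the group where it is high. The LPS levels were only bounds, and Gpr174 was at least 1.68-fold lower with LPS in the WT (adjusted p = 7.39e-05). It was called lower in the KO as well (adjusted p = 0.00147), where no fold is given. Such a bound sets the mean of the brighter group against the lowest signal that counted as above background on the dimmer group's arrays.

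Gpr55 was above background on 0 of 3 KO LPS and 3 of 3 KO PBS arrays, at -5.58, -6.03 and -5.62 against -3.79, -3.70 and -4.09. In WT cells it was above it on 0 of 3 LPS arrays and 1 of 3 PBS arrays, at -6.03, -5.44 and -4.70 against -4.17, -4.44 and -3.50. It passed the filter only through KO PBS, the group where it is high, and was at least 1.49-fold lower after LPS in KO cells (adjusted p = 0.00067). It was also called lower in WT cells (adjusted p = 0.00579), where no fold can be given. Both genes are known from lymphocytes, as are Gpr18, Gpr183 and Gpr171. Beside them stood the B-cell markers, of which 8 of 10 were lower after LPS in KO cells and 7 of 10 in WT cells with none higher. Of all genes, 32% were called lower in KO cells and 31% in WT cells. Of 7 tested T-cell markers 2 were lower and 1 higher in KO cells and 6 were lower in WT cells. The part of these cells in the receptor changes was not tested.

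Gpr171, with the peptide BigLEN as a reported ligand, lies within Med12l in the P2Y12 gene cluster of chromosome 3. It was at 1.78, 1.65 and 1.86 in KO LPS arrays and 2.43, 2.28 and 2.37 in KO PBS arrays. Its WT levels were 2.66, 2.74 and 2.43 with LPS and 3.10, 3.06 and 2.98 with PBS. All 3 KO LPS arrays lay below every other array, and all 3 WT PBS arrays above every other. The LPS change was -0.60 ± 0.08 in KO cells (1.51-fold lower, adjusted p = 4.5e-05) and -0.43 ± 0.08 in WT cells (1.35-fold lower, adjusted p = 0.000528). On the list of P2Y12-like receptors, Gpr171 and Gpr174 were the 2 tested of 5, and both fell in each genotype. On the list of receptors for metabolites, peptides and zinc, 2 of 8 were tested, Gpr171 and Gpr35.

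Gpr35, for which kynurenic acid is a reported ligand, rose. It was at 0.00, -0.21 and -0.02 in KO LPS arrays and -0.84, -0.80 and -0.99 in KO PBS arrays. In WT arrays it was at 0.13, 0.31 and 0.05 with LPS and -0.24, -0.15 and -0.87 with PBS. As with Gpr65, WT PBS array 3 was the lowest of its group and close to the KO PBS arrays. The change was 1.74-fold in KO cells (0.80 ± 0.16, adjusted p = 0.000765) and 1.5-fold in WT cells (0.59 ± 0.16, adjusted p = 0.00587). Another Gpr35 probe gave 0.93 in each genotype.

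Among the proteins of the Golgi and lysosome, 5 of 9 were tested. Gpr137b, a lysosomal membrane protein linked to mTORC1, fell most. It was at 2.12, 2.05 and 2.15 in KO LPS arrays and 3.47, 3.37 and 3.17 in KO PBS arrays. WT cells gave 1.65, 1.58 and 1.87 with LPS and 3.03, 3.07 and 3.27 with PBS. The groups did not overlap, and the change was -1.23 ± 0.09 in KO cells (2.34-fold lower, adjusted p = 3.57e-07) and -1.42 ± 0.09 in WT cells (2.68-fold lower, adjusted p = 8.23e-08). Its 3 other probes fell too, by 1.08 to 1.22 in KO cells and 1.40 to 1.46 in WT cells. The probe of the pseudogene copy Gpr137b-ps fell by 1.31 in KO cells and by 1.48 in WT cells, and signal from the gene and from this copy cannot be told apart.

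Its relative Gpr137 fell by 0.66 in KO cells (adjusted p = 1e-06) and 0.64 in WT cells (adjusted p = 1.09e-06), with levels of -0.22, -0.11 and -0.13 in KO LPS against 0.48, 0.60 and 0.44 in KO PBS, and -0.12, -0.14 and -0.16 in WT LPS against 0.47, 0.53 and 0.50 in WT PBS. Bad, which overlaps Gpr137 on chromosome 19, fell by 0.63 in KO cells and 0.61 in WT cells, nearly the same amounts as the brightest Gpr137 probe. Another Gpr137 probe gave -0.82 in KO cells and -0.96 in WT cells. The Golgi protein Gpr108 changed by -0.36 ± 0.06 in KO cells (adjusted p = 0.000175) and -0.39 ± 0.06 in WT cells (adjusted p = 7.94e-05). Its close relative Gpr107 was higher, by 0.16 ± 0.06 in KO cells (adjusted p = 0.0276) and 0.32 ± 0.06 in WT cells (adjusted p = 0.000328). The KO call of Gpr107 was lost with the slide as a term (adjusted p = 0.0784) and when only the 6 KO arrays were fitted (adjusted p = 0.0508). Gpr180 was at -0.90, -0.92 and -1.02 in KO LPS arrays and -0.62, -0.40 and -0.97 in KO PBS arrays. Its call in KO cells, -0.29 with adjusted p = 0.0471, came with overlapping arrays and went to 0.02 with the slide as a term, and in WT cells it was not called (-0.17, adjusted p = 0.21). Pairing the 6 WT arrays by replicate number gave calls for Gpr180 (-0.17, adjusted p = 0.0456) and Gpr157 (-0.14, adjusted p = 0.0141).

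Gpr146, which in mice affects lipoprotein secretion by the liver, fell in both genotypes. It was at 0.53, 0.61 and 0.56 in KO LPS arrays and 1.61, 1.60 and 1.68 in KO PBS arrays. Its WT LPS levels were 0.56, 0.49 and 0.83 and its WT PBS levels 2.00, 1.99 and 1.99. The LPS levels of the genotypes overlapped, while the PBS levels did not. The gene was 2.09-fold lower in KO cells (-1.06 ± 0.07, adjusted p = 1.72e-07) and 2.58-fold lower in WT cells (-1.37 ± 0.07, adjusted p = 1.69e-08).

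Of the receptors that raise cyclic AMP through Gs without a known ligand, 3 of 8 on the array were tested. Gpr6 rose 1.68-fold in KO cells, with 0.27, 0.24 and 0.02 in LPS arrays against -0.54, -0.56 and -0.60 in PBS arrays (adjusted p = 2.23e-05). In WT cells it rose 1.7-fold, with 0.06, 0.02 and 0.33 in LPS arrays against -0.68, -0.69 and -0.53 in PBS arrays (adjusted p = 1.6e-05). It is the gene with the CRE shown above. Gpr3 was not called, at -0.09 in KO cells (adjusted p = 0.49) and -0.07 in WT cells (adjusted p = 0.602), and Gpr26 is described with the slides.

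Gpr85, the most conserved member of the SREB family of brain-enriched orphans, was above background on 3 of 3 LPS arrays and 0 of 3 PBS arrays in each genotype. Its levels were -3.16, -2.88 and -3.26 in KO LPS and -4.70, -4.95 and -4.54 in KO PBS, and -3.27, -3.23 and -3.35 in WT LPS and -4.70, -5.40 and -6.00 in WT PBS. It passed the filter only through the LPS groups, where it is high. With LPS it stood at least 2.11-fold higher than with PBS in the KO (adjusted p = 0.00035) and at least 1.73-fold higher in the WT (adjusted p = 4.71e-05). Gpr27 and Gpr173 of the same family were above background on 0 arrays. Gpr45, another orphan, was above background on every LPS array, on 2 of 3 KO PBS arrays and on 1 of 3 WT PBS arrays. Its fitted LPS change was 1.19 in KO cells (adjusted p = 0.00805) and 1.36 in WT cells (adjusted p = 0.00343), and with normexp correction 0.50 and 0.58. The KO change of Gpr45 was 0.60 with the slide as a term (adjusted p = 0.258).

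Of the remaining orphans, Gpr25 fell by 0.37 ± 0.09 in KO cells (adjusted p = 0.00304) and 0.39 ± 0.09 in WT cells (adjusted p = 0.00225). Gpr19 and Gpr162 were called in WT cells alone, at -0.38 (adjusted p = 0.0113) and -0.68 (adjusted p = 0.00591). Their KO changes were -0.04 (adjusted p = 0.778) and -0.42 (adjusted p = 0.058). The WT call of Gpr19 was lost with normexp correction (-0.16, adjusted p = 0.0709) and without WT PBS array 3 (-0.28, adjusted p = 0.0511). The difference between these changes was not called for either. Gpr26 and Gpr165 were called in KO cells alone, and Gpr3, Gpr75, Gpr149, Gpr152 and Gpr157 in neither genotype.

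**Figure D2:**
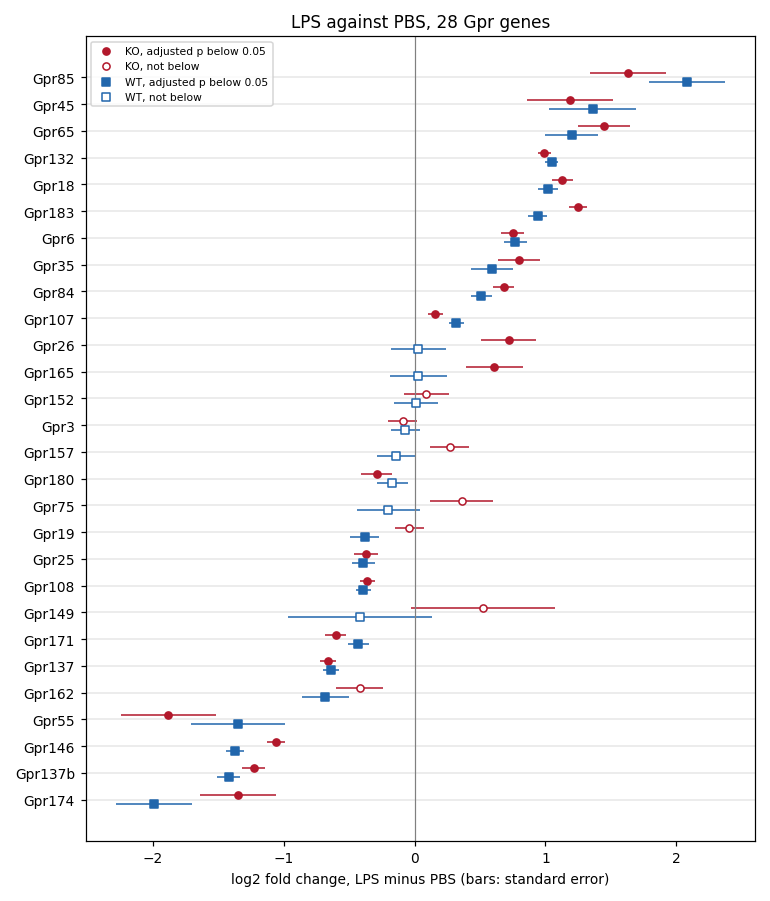
Log2 fold change, LPS minus PBS, of 28 tested Gpr genes, with red circles for KO cells, blue squares for WT cells, bars for the standard error and filled symbols for an adjusted p below 0.05. Gpr85, Gpr45, Gpr65, Gpr132 and Gpr18 stand highest in WT cells and Gpr174, Gpr137b, Gpr146 and Gpr55 lowest, where values of Gpr85, Gpr45, Gpr174 and Gpr55 are fitted values from arrays partly not above background.

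Whether LPS acted differently in KO and WT cells was tested by the interaction of genotype and LPS. It was called for 0 of the 29 Gpr genes by limma, against 4.31% of all genes, while 3 of the 29 had an unadjusted p below 0.05 and the smallest adjusted p was 0.101. A call appeared when single arrays were left out. Without WT PBS array 3 the interaction of Gpr65 was 0.56 (adjusted p = 0.0125), and without WT LPS array 3 those of Gpr146 and Gpr84 were 0.40 (adjusted p = 0.00555) and 0.28 (adjusted p = 0.0369). Without KO PBS array 3, the only KO PBS array on slide 2, Gpr26 was called at 1.03, Gpr157 at 0.60 and Gpr165 at 0.85. In that fit no slide held both KO PBS and KO LPS arrays, so the interaction could not be told apart from the slide. With the slide as a term it was 0.02 for Gpr26 (adjusted p = 0.975), 0.04 for Gpr157 (0.959) and 0.05 for Gpr165 (0.963).

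The comparison of KO with WT cells in PBS addressed the receptor genes of unstimulated cells. Of the 29 genes 1 was higher in KO cells and 5 were lower, which are Gpr132, Gpr146, Gpr171, Gpr18 and Gpr183. These are 6 of 29, or 20.7%, where 14.1% of all genes were called, 8.06% higher and 6.05% lower. Over all genes that is 1070 higher and 804 lower, which became 659 higher and 861 lower with arrays centred on their median. None of the 29 reached 2-fold, as 1.14% of all genes did. The median difference was 0.06 over the 29 and 0.01 over all genes. KO PBS and WT PBS arrays did not overlap in 9 of the 29 genes and in 30.5% of all genes.

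Gpr171 differed most among the called genes, by -0.68 ± 0.08 (1.61-fold lower in KO, adjusted p = 0.000331), with 2.43, 2.28 and 2.37 in KO PBS against 3.10, 3.06 and 2.98 in WT PBS. On slide 1 alone the difference was -0.69 (adjusted p = 0.0068). Gpr183 was 1.35-fold lower in KO cells (-0.43 ± 0.07, adjusted p = 0.00191) and Gpr146 was 1.29-fold lower (-0.37 ± 0.07, adjusted p = 0.00773), and on slide 1 alone they differed by -0.43 (adjusted p = 0.00987) and -0.39 (adjusted p = 0.0398). The KO PBS levels given above for these 3 genes all lay below the WT PBS levels.

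Gpr18 differed by -0.34 ± 0.08 (adjusted p = 0.0155) and Gpr132 by -0.23 ± 0.05 (adjusted p = 0.0173), and on slide 1 alone their adjusted p was 0.0868 and 0.0792. The X-linked Gpr174 was at -0.90 (adjusted p = 0.0615) and became a call at -1.08 with the slide as a term (adjusted p = 0.0381), with 1 of 3 KO PBS and 3 of 3 WT PBS arrays above background. Gpr65 gave -0.62 (adjusted p = 0.055), with WT PBS array 3 among the KO levels. It was called without that array (-0.93, adjusted p = 4.28e-05), and also with quantile scaling (adjusted p = 0.0453), median centring (0.0497), normexp correction (0.0453) and the replicate block (0.0407). Gpr65 was not called with the slide as a term (-0.65, adjusted p = 0.0864) or on slide 1 alone (adjusted p = 0.165). Nor was it called when only the 6 PBS arrays were fitted with the replicate block (adjusted p = 0.223). With the slide as a term 6 Gpr genes were called, all lower in KO cells, against 15.2% of all genes. Beside these lymphocyte-linked receptors, 5 of 10 B-cell markers and 2 of 7 tested T-cell markers were lower in KO PBS than in WT PBS, with none higher. These marker counts come from the fit without the slide as a term, where 6.05% of all genes were lower. The part of B and T cells was not tested.

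After LPS, 7 of the 29 Gpr genes were higher in KO than in WT cells and 4 were lower, or 37.9%, against 39.5% of all genes called, 20% higher and 19.5% lower. Over all genes that is 2653 higher and 2589 lower, which became 1729 higher and 4003 lower with arrays centred on their median. None of the 29 reached 2-fold, as 3.73% of all genes did. The groups did not overlap in 18 of the 29 genes, and in 58.4% of all genes. With the slide as a term the count was 2 of 29, against 5.84% of all genes. In that fit the slide effect rests on KO PBS array 3 against KO PBS arrays 1 and 2, since no WT array lay on slide 2.

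The genes called in both fits were Gpr171 and Gpr137b. Gpr171 was at 1.78, 1.65 and 1.86 in KO LPS and 2.66, 2.74 and 2.43 in WT LPS, a difference of -0.85 ± 0.08 (1.8-fold lower in KO, adjusted p = 3.82e-05) that was -0.86 with the slide as a term (adjusted p = 0.0116). Among the 29 it was the only gene called with the same sign in PBS and after LPS in every alternative fit, 18 in PBS and 17 after LPS. Med12l, whose span holds Gpr171, was above background on 0 of 6 KO arrays and 2 of 6 WT arrays. Gpr137b was higher in KO LPS by 0.41 ± 0.09 (1.33-fold, adjusted p = 0.00599), and by 0.66 with the slide as a term (adjusted p = 0.0308). The Gpr137b-ps probe was higher in KO LPS as well, by 0.28 (adjusted p = 0.0106).

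Gpr132 differed by -0.29 ± 0.05 (adjusted p = 0.00229), Gpr107 by -0.21 ± 0.06 (adjusted p = 0.0129) and Gpr18 by -0.23 ± 0.08 (adjusted p = 0.0378). The call of Gpr18 was lost in 8 of the 17 alternatives. Gpr19 was higher in KO LPS, at -1.79, -1.66 and -1.71 against -2.36, -2.24 and -2.12 in WT LPS (0.52 ± 0.11, adjusted p = 0.00459), and its adjusted p was 0.326 with the slide as a term. Gpr183 and Gpr146, lower in KO PBS, were at -0.12 (adjusted p = 0.178) and -0.06 (adjusted p = 0.53) after LPS. B-cell markers were lower in KO LPS in 6 of 10 and T-cell markers in 2 of 7 tested, with 1 T-cell marker higher. These marker counts come from the fit without the slide as a term, where 20% of all genes were higher and 19.5% lower. The part of B and T cells in these differences was not tested.

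**Figure D3:**
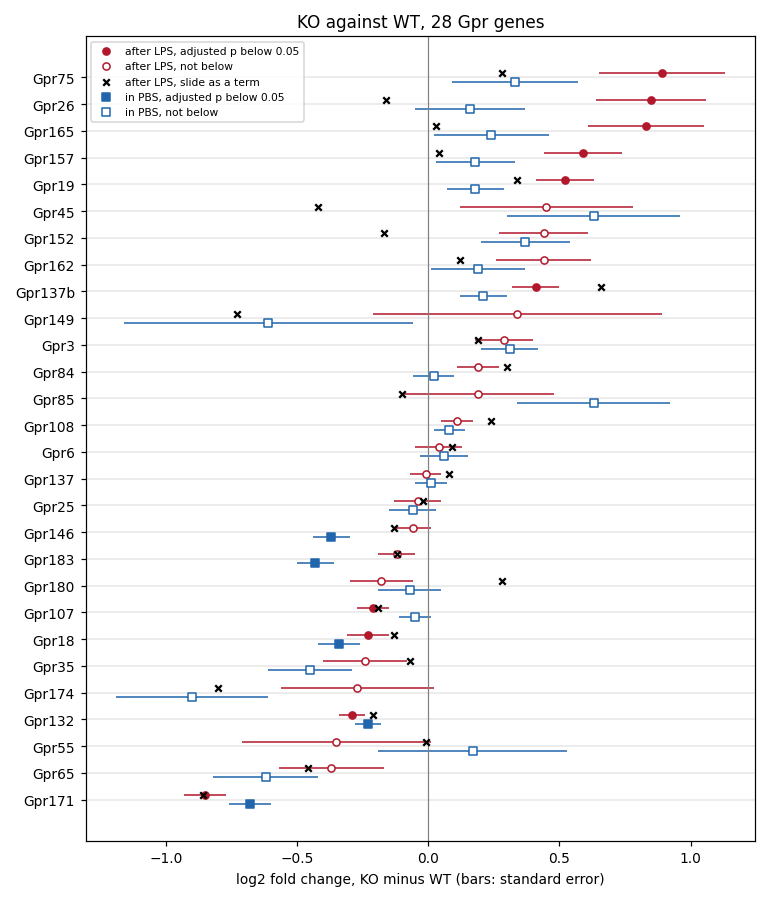
Log2 fold change, KO minus WT, of 28 tested Gpr genes, with red circles after LPS, blue squares in PBS, bars for the standard error, filled symbols for an adjusted p below 0.05 and black crosses for the value after LPS with the slide as a term. The cross of Gpr171 falls on its circle, and those of Gpr75, Gpr26, Gpr165 and Gpr157 lie left of theirs. The values of Gpr75 and Gpr165 after LPS are fitted, with 0 of 3 and 1 of 3 WT LPS arrays above background.

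Of the other genes higher in KO LPS, 4 (Gpr26, Gpr165, Gpr75 and Gpr157) were high on slide 2 in PBS as well. Gpr26, a Gs-coupled orphan of the brain, was at -0.34, -0.28 and -0.35 in KO LPS arrays and -1.29, -1.48 and -0.36 in KO PBS arrays, where the value of -0.36 came from slide 2. It was at -1.13, -1.14 and -1.25 in WT LPS and -1.24, -1.15 and -1.21 in WT PBS. All 4 arrays of slide 2 thus stood between -0.36 and -0.28 and all 8 of slide 1 at or below -1.13. Its LPS change in KO cells was 0.72 ± 0.21 (adjusted p = 0.00994) but 0.04 on slide 2 alone (adjusted p = 0.628). Its difference between KO and WT after LPS was 0.85 ± 0.21 (adjusted p = 0.00854), and -0.16 with the slide as a term (adjusted p = 0.459).

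Gpr165, an X-linked orphan, was at -3.21, -3.17 and -3.20 in KO LPS and -4.10, -4.03 and -3.27 in KO PBS, against -4.02, -4.18 and -3.87 in WT LPS and -3.93, -4.23 and -3.98 in WT PBS. The KO PBS array on slide 2 again had the level of the KO LPS arrays. The fitted difference after LPS was 0.83 ± 0.22 (adjusted p = 0.0123) and 0.03 with the slide as a term (adjusted p = 0.964). The LPS change in KO cells was 0.61 ± 0.22 (adjusted p = 0.0282) and 0.08 on slide 2 alone, again with that single PBS array. It was above background on 3 of 3 KO LPS arrays and 1 of 3 arrays in each other group, so it passed the filter only through KO LPS, where it is high, and these are fitted values near background. With normexp correction the difference after LPS was 0.20 (adjusted p = 0.0516) and the LPS change in KO cells 0.18 (adjusted p = 0.0511).

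Gpr157, a Gq-coupled receptor described on the cilia of neural progenitors, was at 2.37, 2.36 and 2.33 in KO LPS and 1.96, 1.84 and 2.45 in KO PBS, against 1.71, 1.61 and 1.97 in WT LPS and 1.86, 1.72 and 2.13 in WT PBS. Its difference after LPS was 0.59 ± 0.15 (adjusted p = 0.00993) and 0.04 with the slide as a term (adjusted p = 0.943). Gpr75, for which the lipid 20-HETE is a reported ligand, was above background on 3 of 3 KO LPS, 2 of 3 KO PBS and 0 of 6 WT arrays, and passed the filter only through KO LPS, where it is high. It was at least 1.36-fold higher in KO LPS than in WT LPS (adjusted p = 0.012), and the fitted difference had an adjusted p of 0.698 with the slide as a term. For these 4 genes the slide and the genotype could not be told apart after LPS.

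**Figure D4:**
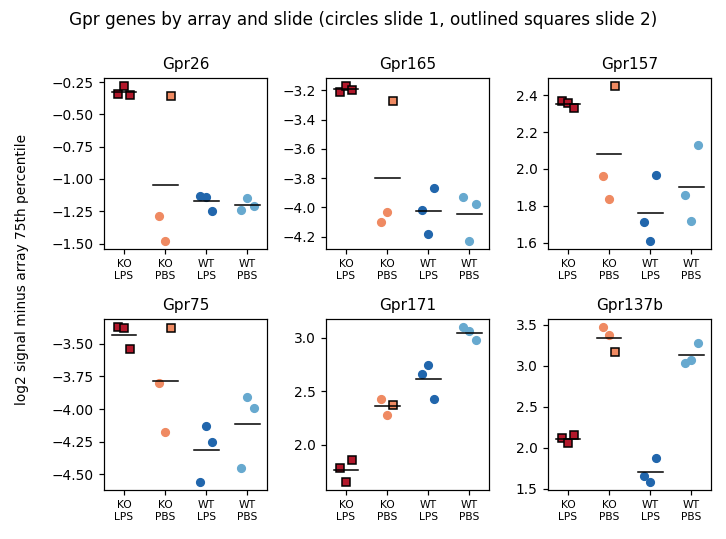
Log2 level of 6 Gpr genes on each array, with circles for slide 1, outlined squares for slide 2, lines for group means, and KO LPS, KO PBS, WT LPS and WT PBS from left to right. In Gpr26, Gpr165, Gpr157 and Gpr75 the KO PBS square lies at the level of the KO LPS squares, while in Gpr171 and Gpr137b it lies with or near the KO PBS circles.

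Gpr183 can be set beside the enzymes that make and break down its ligand. Ch25h, which puts the first hydroxyl on cholesterol, was at 5.68, 5.77 and 5.62 in KO LPS arrays and 4.03, 4.34 and 3.96 in KO PBS arrays. In WT cells it was at 5.94, 6.0 and 5.87 with LPS and 3.30, 3.33 and 3.31 with PBS. It rose 2.99-fold in KO cells (1.58 ± 0.08, adjusted p = 2.06e-08) and 6.15-fold in WT cells (2.62 ± 0.08, adjusted p = 4.96e-10). The KO change differed from the WT change by -1.04 ± 0.12 in the interaction test (adjusted p = 0.000268), and its PBS level was 1.73-fold higher in KO cells (adjusted p = 0.000187), opposite in sign to Gpr183. The difference after LPS was -0.25 (adjusted p = 0.0368), and -0.02 with the slide as a term (adjusted p = 0.965).

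Cyp7b1, which adds the second hydroxyl, was above background on 6 of 6 KO arrays and 0 of 6 WT arrays. It passed the filter on dim probes only through the KO groups, where it is high. Its differences between genotypes are therefore partly set by the filter, and their p-values are given as a description. Its KO level exceeded the WT level, being at least 2.58-fold higher after LPS (adjusted p = 0.00733) and at least 2.35-fold higher in PBS (adjusted p = 0.00412), and LPS gave no call in either genotype. With the slide as a term the adjusted p was 0.264 after LPS and 0.0137 in PBS. Hsd3b7, which degrades the ligand, fell 2.49-fold in KO cells (-1.32 ± 0.11, adjusted p = 5.37e-07) and 2.66-fold in WT cells (-1.41 ± 0.11, adjusted p = 2.33e-07). It was higher in KO than in WT cells by 0.44 after LPS (adjusted p = 0.00725) and by 0.34 in PBS (adjusted p = 0.0496), where the arrays overlapped. Cyp27a1 was above background on 0 arrays.

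**Figure D5:**
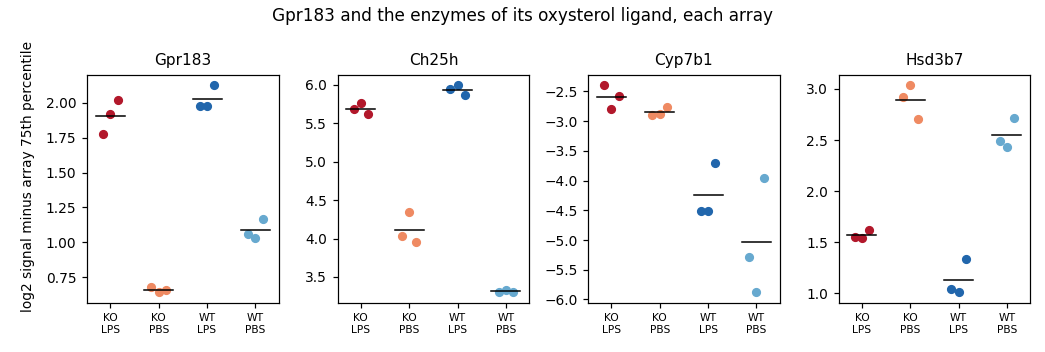
Log2 level of Gpr183 and of the ligand enzymes Ch25h, Cyp7b1 and Hsd3b7 on each array, 1 point for each array and a line at the group mean, with KO LPS, KO PBS, WT LPS and WT PBS from left to right and an axis of its own for each gene. Gpr183 and Ch25h are higher with LPS in both genotypes, Hsd3b7 is lower, and Cyp7b1 was above background on the KO arrays only.

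Among the proteins shared by these receptors, the tested arrestins and receptor kinases were lower after LPS in both genotypes. Of 6 tested arrestins and receptor kinases, which end receptor signalling, 6 were lower in KO cells and 6 in WT cells, with a median of -1.08 in each, where 32% and 31% of all genes were called lower. Arrb1, beta-arrestin 1, was at -1.84, -1.86 and -1.71 in KO LPS against 0.74, 0.99 and 0.41 in KO PBS, and at -2.18, -2.38 and -1.72 in WT LPS against 0.47, 0.20 and 0.98 in WT PBS. It was 5.73-fold lower in KO cells (adjusted p = 7.93e-07) and 6.23-fold lower in WT cells (adjusted p = 4.32e-07). Arrb2 fell 2.82-fold in KO cells and 3.51-fold in WT cells, and Grk6 fell 2.52-fold and 2.44-fold. Grk2, Grk3 and Grk5 fell by 0.21 to 0.83 in KO cells and 0.39 to 0.87 in WT cells. These directions were the same under quantile scaling, median centring and normexp correction. Between genotypes, 4 of the 6 were higher and 1 lower in KO LPS, and 2 were higher and 1 lower in KO PBS, where 39.5% of all genes were called after LPS and 14.1% in PBS. No slide held both KO LPS and WT LPS arrays, and with the slide as a term 5.84% of all genes were called after LPS. Arrb2 was higher in KO cells by 0.68 after LPS (adjusted p = 9.92e-05) and by 0.37 in PBS (adjusted p = 0.00842). Grk6 differed by -0.47 after LPS (adjusted p = 0.000366) and -0.42 in PBS (adjusted p = 0.0015).

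The Rgs proteins speed the shut-off of G proteins. Of 13 tested Rgs genes 6 fell in KO cells and 5 in WT cells, and none was called higher, against 32% and 31% of all genes called lower and 35.1% and 33.7% called higher. Rgs2 fell 3.02-fold in KO cells (adjusted p = 8.06e-07) and 3.05-fold in WT cells (adjusted p = 6.17e-07). Rgs14 fell 2.92-fold in KO cells and 2.32-fold in WT cells, Rgs18 fell 2.54-fold and 2.22-fold, and Rgs10 fell 1.68-fold and 2.11-fold. Among 10 tested G protein alpha subunits, 4 were higher and 4 lower in KO cells, and 2 were higher and 2 lower in WT cells, with 67% and 64.7% of all genes called. Gna13 rose by 0.29 in KO cells (adjusted p = 0.00056) and 0.40 in WT cells (adjusted p = 4.11e-05), and the inhibitory subunit Gnai2 fell by 0.51 in KO cells (adjusted p = 9.11e-05) and 0.57 in WT cells (adjusted p = 3.35e-05). Between genotypes, 3 Rgs genes were higher and 1 lower in KO LPS, and 1 was higher and 1 lower in KO PBS. For the alpha subunits these counts were 2 higher and 1 lower in KO LPS, and 2 higher and 0 lower in KO PBS, against the same shares of all genes called, 39.5% after LPS and 14.1% in PBS. The Rgs and alpha subunit counts come from the fit without the slide as a term. Gna14 was at -0.44, -0.39 and 0.50 in KO PBS arrays, the last on slide 2, and 0.51, 0.43 and 0.48 in KO LPS. Gnat2 passed the filter on dim probes only through the LPS groups and Rgs11 only through KO LPS, where they are high.

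The other 44 Gpr genes were not tested. Of these, 28 were above background on 0 of 12 arrays, among them the proton sensor Gpr4, the lysophosphatidylserine receptor Gpr34, the chemerin receptor Gpr1, the oleoylethanolamide receptor Gpr119 and the class C orphans Gpr158 and Gpr179. The other 16 were above it on 1 to 6 arrays without reaching all 3 of any group. Gpr50, related to the melatonin receptors, and Gpr89, the Golgi pH regulator, were above background on 6 arrays each, and Gpr160 on 4. For these genes a change was not detectable on these arrays, and their signals say nothing about absence of the transcript.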

How the data were processed

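Macrophage RNA was labelled with Cy3 and hybridised to 12 Agilent mouse arrays, 1-colour and of 62976 spots each. The authors deposited scanner output, made with Agilent Feature Extraction 11.5.1.1 per the submitters' processing notes. The values are spot intensities, background-subtracted per the file headers, with flags for spots well above background.

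Control spots were left out. Spots of a probe were averaged without those marked as outliers, unless all its spots were marked. The 75th percentile used for scaling included marked spots. Each array was scaled as log2 intensity minus its 75th percentile (469.6 to 574.1 intensity units in the deposited files). A probe was kept if over 0.5 of its spots carried that flag on each of the 3 arrays of some group, and the brightest kept probe stood for a gene. Between 48.8% and 57.1% of spots were above background, 0 were saturated, and the number of arrays limits the precision. RefSeq accessions were matched to symbols (GRCm38.p6). limma 3.58.1 in R 4.3.3 was fitted to all 12 arrays (lmFit, eBayes with a mean-variance trend, two-sided), and p-values were adjusted by Benjamini-Hochberg over 13283 genes at a threshold of 0.05. The steps were tested on simulated data.

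Gpr genes and lists were chosen with earlier results of these data known. Every tested Gpr gene could be named, and some genes that the counts include are not reported here. Called genes without overlapping arrays were given with full values, and from each pathway list the called genes with the smallest p, up to 4, with the whole oxysterol list. Grk2, Grk3 and Grk5 were named as well after their values were seen.

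Slide and scan were tested as a term and within a slide. Replicate numbers entered only alternative fits, as a block, and the main fit did not pair arrays. In WT cells same-numbered LPS and PBS arrays deviated together (r = 0.105, 0.371 and 0.481). WT LPS array 1 nevertheless matched WT PBS array 2 best. In KO cells same-numbered arrays deviated together weakly (r = 0.04, 0.113 and 0.081), each matching its own number best. Between genotypes not every pair did (r = -0.102 to 0.017). The correction by normexp, an alternative, used the median signal with its background and an offset of 50, as the mean signal was not used here.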

Additional observations from a re-analysis of the deposited data

How the results depend on the processing

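The number of Gpr genes called moved by over 1.5 times under few settings. Asking for at least 2-fold left 10 in KO cells and 10 in WT cells for LPS, and 0 between KO and WT in PBS and 0 after LPS. With the slide as a term the count after LPS was 2 in place of 11. Fitting only the 6 arrays compared with the replicate block, chosen after seeing the data, left 1 in PBS in place of 6. It gave 21 for LPS in KO cells, 23 for LPS in WT cells and 14 after LPS. Shares of all genes called are not given here for this fit or for those leaving out 1 array. Such counts therefore show only how the Gpr calls moved. The replicate block on all 12 arrays gave 23 for LPS in KO cells, 21 for LPS in WT cells, 8 between genotypes in PBS, 12 between them after LPS, and 0 for the interaction. In the same order, 67.5%, 64.7%, 14.6%, 39.3% and 4.34% of all genes were called in that fit. Between genotypes the arrays share only a number, and within KO cells same-numbered arrays deviated together only weakly.

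Leaving out 1 array at a time gave 19 to 24 calls for LPS in KO cells, 20 to 21 for LPS in WT cells, 4 to 9 in PBS, 9 to 12 after LPS and 0 to 3 for the interaction. Values changed sign for Gpr180 in KO cells, to 0.02 with the slide as a term and 0.02 on slide 2 alone, and for Gpr26 after LPS, to -0.16 with the slide as a term. The cause was not tested. No other called direction turned in the quantile, median-centred, normexp, probe-choice or filter alternatives. Median centring moved the median of all genes after LPS to -0.12 in place of -0.01. Gpr genes then gave 7 higher and 5 lower, against 43.2% of all genes called, 1729 higher and 4003 lower. Calls held least often for Gpr165 and Gpr180 in KO cells, in 6 of 17 and 6 of 18 alternatives, Gpr18 after LPS in 9 of 17 and Gpr107 in KO cells in 11 of 18. Signals near background limit Gpr45, Gpr55, Gpr75, Gpr85, Gpr149, Gpr165 and Gpr174.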
